A study of Saccharomyces cerevisiae with 12 samples.

Results

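Transcripts for the machinery that carries proteins into mitochondria were followed in the budding yeast Saccharomyces cerevisiae under 2 stresses. The set was taken by name. It holds the 23 genes whose array symbol is TOM or TIM followed by a number, and 14 further import genes (PAM16, PAM17, PAM18, MGE1, HSP60, HSP10, MIA40, ERV1, SAM35, SAM37, SAM50, OXA1, MAS1 and MAS2). All 37 were found among the 5449 genes measured, each with 1 probe set of a type not shared between genes. The name pattern also took in TOM1, a nuclear and cytosolic ubiquitin ligase, and TIM11, a subunit of the mitochondrial ATP synthase, neither of which is an import component. The other 35 are parts of the import route. Both exceptions are described apart from them but stay in all counts of import genes out of 37.

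Most mitochondrial proteins are made in the cytosol and imported. They are recognised by receptors of the TOM complex and cross the outer membrane through its Tom40 channel, after which the routes part. Outer membrane barrels are inserted by the SAM complex, cysteine-rich proteins of the intermembrane space are folded by Mia40 and Erv1, carrier proteins travel with the small Tim chaperones to the TIM22 complex, and proteins with a cleavable presequence pass the TIM23 channel, pulled by a motor built on the mitochondrial Hsp70. In the matrix the presequence is removed by the Mas1-Mas2 protease and folding is assisted by Hsp60 and Hsp10. Many of these components are essential for growth.

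Cells growing in the rich medium YPD at 25 °C were treated at time 0 with 0.3 mM hydrogen peroxide (H2O2), an oxidant, or with 0.1% methyl methanesulfonate (MMS), an alkylating agent that damages DNA. Each course has 1 array at 0, 30, 60, 100, 140 and 180 min, 12 arrays in all, and no strain or genotype is given in the labels. The 2 arrays at 0 min form the time 0 group (n = 2), the arrays at 30 and 60 min make up the early window of a stress (n = 2 each), and its late window is made up of the later times, 100, 140 and 180 min (n = 3 each). Time points thus stand in for replicate cultures. The p-values measure the spread between time points of a window and between the 2 arrays at 0 min, and not between replicate cultures of a stress. The 4 comparisons of a window with time 0 share both time 0 arrays.

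Values are log2 signals from RMA, a method that summarises the probes of a gene and brings the arrays to 1 scale, so that a level is relative to the other transcripts on the array. The signals average over a whole culture, in which a lower level in all cells and a loss of the transcript in some cells, or fewer such cells, cannot be told apart. Array medians lay between 9.06 and 9.20, and how precise a value can be is limited by how few arrays there are. The response genes of the courses moved: at 30 and 60 min TSA2, a peroxide-induced peroxiredoxin, rose by 7.12 ± 0.57 after H2O2 and by 5.42 ± 0.57 after MMS. RNR3, a DNA damage-induced ribonucleotide reductase subunit, was at 2.61 ± 0.39 late after H2O2 and 3.06 ± 0.39 late after MMS. SRX1, the peroxide-induced sulfiredoxin, was at 1.10 ± 0.66 and 5.97 ± 0.66, and HUG1, a DNA damage-induced ribonucleotide reductase inhibitor, at 3.72 ± 0.50 and 2.91 ± 0.50, in the same order. Of these changes all but that of SRX1 late after H2O2 were called, so genes of both responses rose in both courses. ACT1, actin, was at 0.13 ± 0.08 late after MMS, adjusted p = 0.157. Changes are log2 differences ± SE of the limma fit, and calling a gene required p under 0.05 after Benjamini-Hochberg adjustment across all 5449 genes.

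Most import transcripts fell late in the MMS course, a small group rose, and few were called in H2O2. In the late MMS window 22 of the 37 fell and 5 rose (SAM50, MAS1, MIA40, SAM35 and TIM21). Of all genes tested, 74.9% were called in this comparison, 34.6% lower and 40.3% higher, against 59.5% and 13.5% of the import genes. The import genes varied less within groups, with a median residual SD of 0.124 against 0.169 for all genes, and a smaller spread makes a call easier. How far this bears on the shares was not tested. The median change was -0.44 for the import genes and 0.09 for all genes. In the late H2O2 window 1 import gene, TIM13, was higher and none was lower with limma, where 15.4% of all genes were called, 9.12% higher and 6.28% lower. At an unadjusted p under 0.05 there were 4 import genes, with no share of all genes taken at that level. The median changes in this window were 0.02 for the import genes and -0.06 for all genes.

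In the early windows the counts were smaller. After H2O2, 2 import genes rose, MAS1 and MIA40, and 1 fell, TIM12, against 33.7% of all genes, 14.7% higher and 19.0% lower. After MMS 3 rose and 6 fell, against 33.1% of all genes, 18.7% higher and 14.3% lower. With arrays centred on their medians the early MMS count was 2 higher and 7 lower, against 16.3% and 17.1% of all genes at that scaling. Of the 27 calls late after MMS, 22 were kept under all 20 alternative settings tried, whereas none of the 3, 9 and 1 calls of the early H2O2, early MMS and late H2O2 windows was. Leaving out single arrays changed these counts, and the share of all genes called without the same array is given in brackets. The early H2O2 count was 1 without the 0 min array of H2O2 or MMS (10.7% and 11% of all genes called) and 5 without the MMS array at 30 or at 60 min (41% each). The early MMS count was 1 without the 0 min array of H2O2 or MMS or the 60 min MMS array (6.44%, 8.42% and 7.73%), 5 without the 140 min array of H2O2 or MMS (24.5% and 25%), and 17 without the 30 min MMS array (48.9%). The late H2O2 count was 0 without the 0 min array of H2O2 or MMS (0.165% and 0.11%), the H2O2 array at 100 or 140 min (4.26% and 2.53%) or the MMS array at 140 min (9.47%). It was 2 without the H2O2 array at 30 or 60 min (17.1% each) and 3 without the MMS array at 30 or 60 min (23.3% each).

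**Figure D1:**
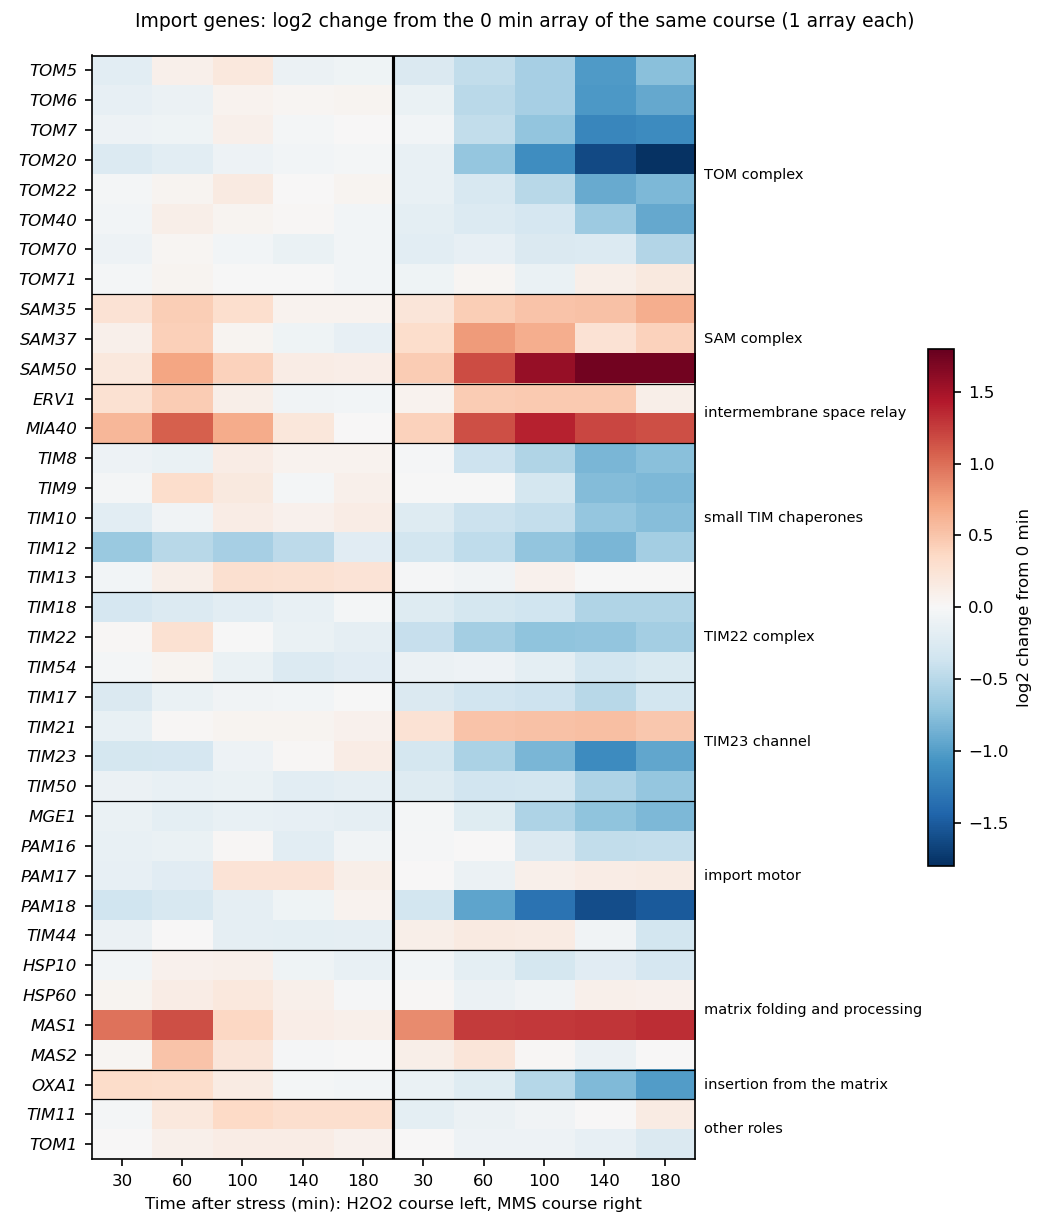
Log2 change of each import gene (rows, grouped by complex) from the 0 min array of its own course at 30 to 180 min (columns, H2O2 left and MMS right), with red higher and blue lower, 1 array per cell. The MMS side darkens with time in blue for TOM20 (-1.78 at 180 min) and PAM18 and in red for SAM50 (1.74 at 180 min), while the H2O2 side is strongest at 60 min, for MAS1 (1.16) and MIA40 (1.07).

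Counted on single arrays against the 0 min array of the same course, the sizes of change can be followed in time, with no test. At 60 min of H2O2, 2 import genes were 2-fold or more higher, MAS1 and MIA40, and 0 were 2-fold or more lower, against 9.43% and 8.13% of all genes. At no other time of this course did any of the 37 lie 2-fold away, where 6.17%, 6.40%, 5.45% and 3.65% of all genes were that much higher (30, 100, 140 and 180 min in order). The share of all genes 2-fold or more lower was 5.41%, 3.95%, 0.991% and 0.404% for these times. At 30 min of MMS none of the 37 lay 2-fold away, against 3.84% of all genes higher and 1.85% lower. In MMS, 3 genes were 2-fold or more higher at 60, 100, 140 and 180 min alike, SAM50, MAS1 and MIA40, against 11.2%, 16.8%, 18.6% and 19.8% of all genes. Those 2-fold or more lower numbered 0 at 60 min, then 2, 6 and 4 at the later times, where the share of all genes was 10.3%, 15.0%, 16.9% and 17.8%. The 6 at 140 min were PAM18, TOM20, TOM7, TIM23, TOM6 and TOM5. The median change of the import genes in MMS was -0.05, -0.14, -0.30, -0.44 and -0.42 at the 5 times, and that of all genes stayed between -0.02 and 0.09.

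The TOM complex is the entry gate, and 7 of its 8 genes fell late after MMS, against 34.6% of all genes. TOM20 (YGR082W), the receptor for presequences, fell most of the 8. Its signal at 0, 30, 60, 100, 140 and 180 min, in that order, was 10.74, 10.61, 10.04, 9.62, 9.11 and 8.96 in the MMS course. Over the same times it was 10.83, 10.58, 10.65, 10.74, 10.78 and 10.80 in the H2O2 course. The signal thus went down at every step of the MMS course, to 2.95-fold below time 0 over the late window (-1.56 ± 0.20, adjusted p = 0.000107), and all 6 H2O2 arrays lay above the 60 min MMS array. Early after MMS it was at -0.46 ± 0.22, adjusted p = 0.122.

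The small subunits TOM5, TOM6 and TOM7, which stabilise the channel, fell alongside. TOM7 (YNL070W) read 11.66, 11.61, 11.21, 10.95, 10.48 and 10.53 in the MMS course and 11.78, 11.69, 11.69, 11.87, 11.74 and 11.78 in the H2O2 course. Every late MMS array lay below every H2O2 array, and the late change was -1.06 ± 0.16, adjusted p = 0.000221. TOM6 and TOM5 fell by 0.91 and 0.86 on the log2 scale, and TOM22, the central receptor, by 0.75. TOM40, the channel itself, had a smaller late change of -0.58 ± 0.16 (adjusted p = 0.00698), and its call was lost without the 0 min MMS array (adjusted p = 0.0512, range over the alternatives 0.000526 to 0.0512).

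The second class of receptors, for carrier proteins and other precursors without a cleavable presequence, had smaller changes than TOM20. TOM70 was at -0.28 ± 0.11 late after MMS (adjusted p = 0.0399). Its call was lost on leaving out any of 6 arrays (both 0 min arrays, the 3 late H2O2 arrays and the 180 min MMS array), with adjusted p between 0.0536 and 0.23. TOM71, its paralog, was at 0.09 ± 0.10 (adjusted p = 0.424). Its signal stayed between 9.96 and 10.26 over all 12 arrays. Whether TOM20 and TOM70 differ from each other in their change was not tested. None of the 8 TOM genes was called in either H2O2 window, against 33.7% of all genes early and 15.4% late. Their changes lay between -0.17 and 0.02 early and between -0.14 and 0.11 late. At an unadjusted p under 0.05 the count of TOM genes was also 0 in both windows, with no share of all genes taken at that level.

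The SAM complex inserts barrel proteins, Tom40 among them, into the outer membrane. Late after MMS 2 of its 3 genes rose, against 40.3% of all genes. SAM50 (YNL026W), the barrel that forms its core, had the largest rise of the import genes late after MMS. In the MMS course it read 8.72, 9.19, 9.90, 10.29, 10.46 and 10.46 at the 6 times, and in the H2O2 course 8.82, 9.004, 9.53, 9.24, 8.96 and 8.94. It climbed to 140 min in the MMS course and held there, while after H2O2 it was highest at 60 min and came back near its start. The late MMS change was 1.63 ± 0.21, which is 3.10-fold, adjusted p = 0.000118, and the early one 0.77 ± 0.23, adjusted p = 0.0338. The early call was lost on leaving out either 0 min array, the 60 min MMS array or the 140 min array of either course, with adjusted p between 0.0518 and 0.282.

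The partners of Sam50 on the cytosolic face had smaller values. SAM35, the receptor for the barrel signal, rose by 0.58 ± 0.12 late after MMS. It stood at 10.02 and 10.06 in the arrays at 0 min and at 10.57, 10.60 and 10.72 in the late MMS arrays, which do not overlap. SAM37 was at 0.40 ± 0.17, adjusted p = 0.0518, with its highest MMS signal, 9.94, at 60 min. It was called on leaving out any of 5 arrays (the early arrays of both courses and the 140 min MMS array), with adjusted p between 0.0296 and 0.0451. In H2O2 none of the 3 SAM genes was called, against 33.7% of all genes early and 15.4% late. Their early changes lay between 0.31 and 0.49. At an unadjusted p under 0.05 there was 1 of them early, with no share of all genes taken at that level.

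In the intermembrane space Mia40 receives incoming precursors and oxidises their cysteines, and Erv1 re-oxidises Mia40. MIA40 (YKL195W) read 10.48, 10.89, 11.63, 11.86, 11.69 and 11.64 in the MMS course and 10.46, 11.06, 11.54, 11.13, 10.67 and 10.46 in the H2O2 course. Both courses started near 10.5 and rose in step to 60 min, after which H2O2 returned to 10.46 at 180 min and MMS stayed at or above 11.64. The change was 1.26 ± 0.25 late after MMS (2.39-fold, adjusted p = 0.00114), 0.79 ± 0.27 early after MMS (adjusted p = 0.0488) and 0.83 ± 0.27 early after H2O2 (adjusted p = 0.0409). The early H2O2 call was lost on leaving out any of 7 arrays (both 0 min arrays, H2O2 at 60 and 140 min and the 3 late MMS arrays), with adjusted p between 0.0528 and 0.241. The early MMS call was lost on leaving out any of 7 arrays too (both 0 min arrays, MMS at 60 min, H2O2 at 140 min and the 3 late MMS arrays), with adjusted p between 0.0607 and 0.396. ERV1 went from 9.32 to 9.78 between 0 and 60 min of H2O2 and was back at 9.27 at 180 min. In MMS it stood between 9.77 and 9.79 from 60 to 140 min and was at 9.42 at 180 min, nearer its start than MIA40. Its change was 0.37 ± 0.16 early after H2O2 and 0.34 ± 0.15 late after MMS, neither of which was called (adjusted p = 0.111 and 0.0599).

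**Figure D2:**
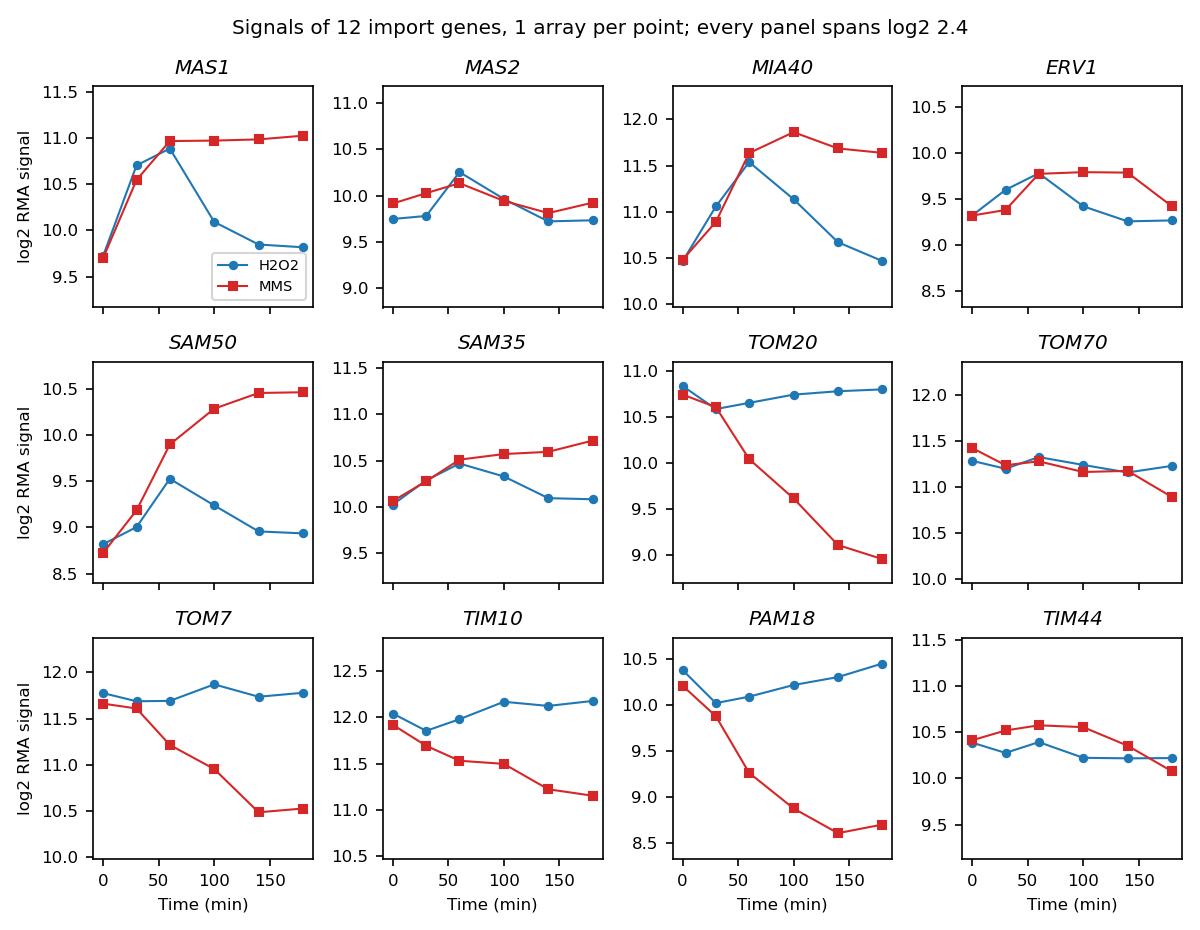
Log2 RMA signal of 12 import genes (panels) against time in min, blue circles for H2O2 and red squares for MMS, 1 array per point, every panel spanning the same log2 range. MIA40, MAS1 and SAM50 rise in both courses to 60 min and part after it, whereas TOM20, TOM7, TIM10 and PAM18 decline through the MMS course and end near their start in H2O2, and the lines of MAS2, TOM70 and TIM44 stay close together.

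The small Tim chaperones shield hydrophobic precursors in the intermembrane space. Late after MMS 4 of the 5 fell, against 34.6% of all genes. TIM8, TIM9 and TIM10 fell by 0.86, 0.75 and 0.69 on the log2 scale. Tim9 and Tim10 form the essential chaperone of carrier precursors, and Tim8 works with Tim13. TIM13 (YGR181W), however, was at -0.03 ± 0.09 after MMS (adjusted p = 0.739). It read 11.11, 11.05, 11.22, 11.40, 11.38 and 11.36 in the H2O2 course and 11.001, 10.98, 10.94, 11.08, 10.99 and 10.99 in the MMS course. The 3 late H2O2 arrays stood above all other arrays and the MMS arrays stayed near the 0 min values, with a late H2O2 change of 0.32 ± 0.09 (adjusted p = 0.0358). That call was lost on leaving out any of 6 arrays (both 0 min arrays, each late H2O2 array and MMS at 140 min), with adjusted p between 0.0552 and 0.257.

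TIM12 (YBR091C), the small Tim protein bound to the TIM22 complex, stood lower than at 0 min in both courses. Its signal was 10.52, 9.86, 10.02, 9.92, 10.06 and 10.32 after H2O2 and 10.49, 10.16, 10.03, 9.78, 9.67 and 9.88 after MMS. All 10 stressed arrays lay below both arrays at 0 min, and in H2O2 it had moved back to 10.32 at 180 min. The change was -0.57 ± 0.14 early after H2O2 (adjusted p = 0.0144), -0.41 ± 0.13 late after H2O2 (adjusted p = 0.0569) and -0.73 ± 0.13 late after MMS (adjusted p = 0.000538). The early H2O2 call was lost without either 0 min array or the 30 min H2O2 array (adjusted p between 0.0575 and 0.0805), and the late H2O2 change was called without the 180 min H2O2 array or the MMS array at 30 or 60 min (adjusted p between 0.0251 and 0.0473).

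The TIM22 complex inserts carrier proteins, and its 3 genes fell late after MMS, against 34.6% of all genes. TIM22 (YDL217C), its channel, was the import gene called between the stresses in the early window. It read 8.75, 8.34, 8.13, 8.02, 8.04 and 8.13 in the MMS course and 8.65, 8.67, 8.93, 8.65, 8.54 and 8.48 in the H2O2 course. From 30 min on the MMS arrays lay below every H2O2 array. It fell by 0.46 ± 0.12 early and 0.63 ± 0.11 late after MMS. The early call was lost without either 0 min array or MMS at 60 min (adjusted p between 0.0779 and 0.151), and the same arrays decided the early calls of TIM23 and TIM17. TIM18, a membrane subunit related to a succinate dehydrogenase anchor, fell by 0.53 ± 0.10. TIM54, the subunit that faces the intermembrane space, fell by 0.27 ± 0.09 (adjusted p = 0.0157), a call lost without either 0 min array or MMS at 140 min (adjusted p between 0.0564 and 0.0817).

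The TIM23 complex carries presequence proteins, and its 4 genes were all called late after MMS, 3 lower and 1 higher. Of all genes 34.6% were lower there and 40.3% higher. TIM23 (YNR017W), the channel protein, read 10.25, 9.93, 9.68, 9.43, 9.12 and 9.30 in the MMS course and 10.30, 9.98, 9.999, 10.21, 10.32 and 10.43 in the H2O2 course. In MMS it was lower at each time up to 140 min, whereas in H2O2 it dipped at 30 and 60 min and ended above its start. It fell by 0.99 ± 0.12 (adjusted p = 8.69e-05) late after MMS, which is 1.98-fold. TIM17, its channel partner, fell by 0.45 ± 0.09, and TIM50, the receptor that takes over from the TOM complex, by 0.46 ± 0.11.

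TIM21 (YGR033C), which docks the TIM23 complex to the TOM complex and to the respiratory chain, went the other way. It read 9.78, 10.04, 10.29, 10.30, 10.32 and 10.27 in the MMS course and 9.97, 9.83, 9.98, 10.02, 10.02 and 10.04 in the H2O2 course. Each MMS array from 60 min on stood above all H2O2 arrays and both arrays at 0 min. The late MMS change was 0.42 ± 0.10 (adjusted p = 0.00398), a call lost without the 0 min MMS array (adjusted p = 0.0536, range over the alternatives 0.00193 to 0.0536).

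The motor at the matrix face of the channel pulls the chain in, and its genes split. PAM18 (YLR008C), the J-protein that stimulates Hsp70, read 10.21, 9.88, 9.26, 8.88, 8.61 and 8.70 in the MMS course. In the H2O2 course it read 10.38, 10.02, 10.09, 10.22, 10.30 and 10.45. The MMS signal was lower at every time up to 140 min and the late arrays lay below all others, with a change of -1.56 ± 0.17 (2.95-fold lower, adjusted p = 5.76e-05). Early after MMS the change was -0.72 ± 0.18 (adjusted p = 0.0186), a call lost without either 0 min array or the 60 min MMS array (adjusted p between 0.0663 and 0.13). PAM16, the J-like partner that restrains Pam18, fell by 0.44 ± 0.10, and MGE1, the nucleotide exchange factor, by 0.78 ± 0.11.

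The remaining motor genes were not called late after MMS. TIM44, which tethers Hsp70 to the channel, was at -0.07 ± 0.13 (adjusted p = 0.621) and PAM17 at 0.11 ± 0.08 (adjusted p = 0.254). PAM17 was called in H2O2 when the late window was set against the early one, at 0.37 ± 0.08 (adjusted p = 0.0285). It read 10.35 and 10.30 at 30 and 60 min and 10.74, 10.75 and 10.60 afterwards. This call was lost without any of 8 arrays, all but those of MMS at 30, 60, 100 and 180 min, with adjusted p between 0.0523 and 0.115.

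In the matrix the presequence is cut off by a protease of the subunits Mas1 and Mas2, and their transcripts had different courses. MAS1 (YLR163C), the catalytic subunit, read 9.72, 10.70, 10.89, 10.09, 9.85 and 9.82 in the H2O2 course and 9.70, 10.55, 10.97, 10.97, 10.99 and 11.03 in the MMS course. It rose at once in both, fell back after 60 min of H2O2 and stayed near 11 in MMS. The change was 1.08 ± 0.15 early after H2O2 (2.12-fold, adjusted p = 0.00179), 1.04 ± 0.15 early after MMS (adjusted p = 0.00234) and 1.28 ± 0.14 late after MMS (2.43-fold, adjusted p = 5.49e-05). Late after H2O2 it was at 0.21 ± 0.14 (adjusted p = 0.306), and the fall from the early to the late H2O2 window was called (-0.88 ± 0.14, adjusted p = 0.00756). In that comparison 9.07% of all genes were called, 4.31% higher and 4.75% lower, and MAS1 was the import gene called lower and PAM17 the one called higher.

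MAS2, the substrate-binding subunit, read 9.91, 10.03, 10.13, 9.94, 9.81 and 9.92 in the MMS course and 9.75, 9.78, 10.25, 9.96, 9.72 and 9.73 in the H2O2 course. Its highest value in both was at 60 min, and it was called in none of the windows, at 0.19 ± 0.16 early after H2O2 and 0.06 ± 0.14 late after MMS. The chaperonin genes had small changes. HSP60 was at 0.07 ± 0.10 (adjusted p = 0.536) and stayed between 12.48 and 12.71 over the 12 arrays, while its co-chaperonin HSP10 fell by 0.31 ± 0.10 late after MMS (adjusted p = 0.0165), a call lost with the 0 min MMS array as the sole baseline (adjusted p = 0.102, range over the alternatives 0.00859 to 0.102). OXA1, which inserts proteins into the inner membrane from the matrix, fell by 0.73 ± 0.14. Its MMS signal was lower at each time, from 9.42 at 0 min to 8.42 at 180 min.

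The genes taken in by name alone were not called late after MMS. TOM1 was at -0.07 ± 0.10 (adjusted p = 0.526) and TIM11 at 0.04 ± 0.10 (adjusted p = 0.741). TIM11 stood higher in all 3 late H2O2 arrays than at 0 min, at 0.32 ± 0.10 (adjusted p = 0.0562). It was called there on leaving out the 30 or 60 min array of either course, with adjusted p between 0.0453 and 0.0466.

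**Figure D3:**
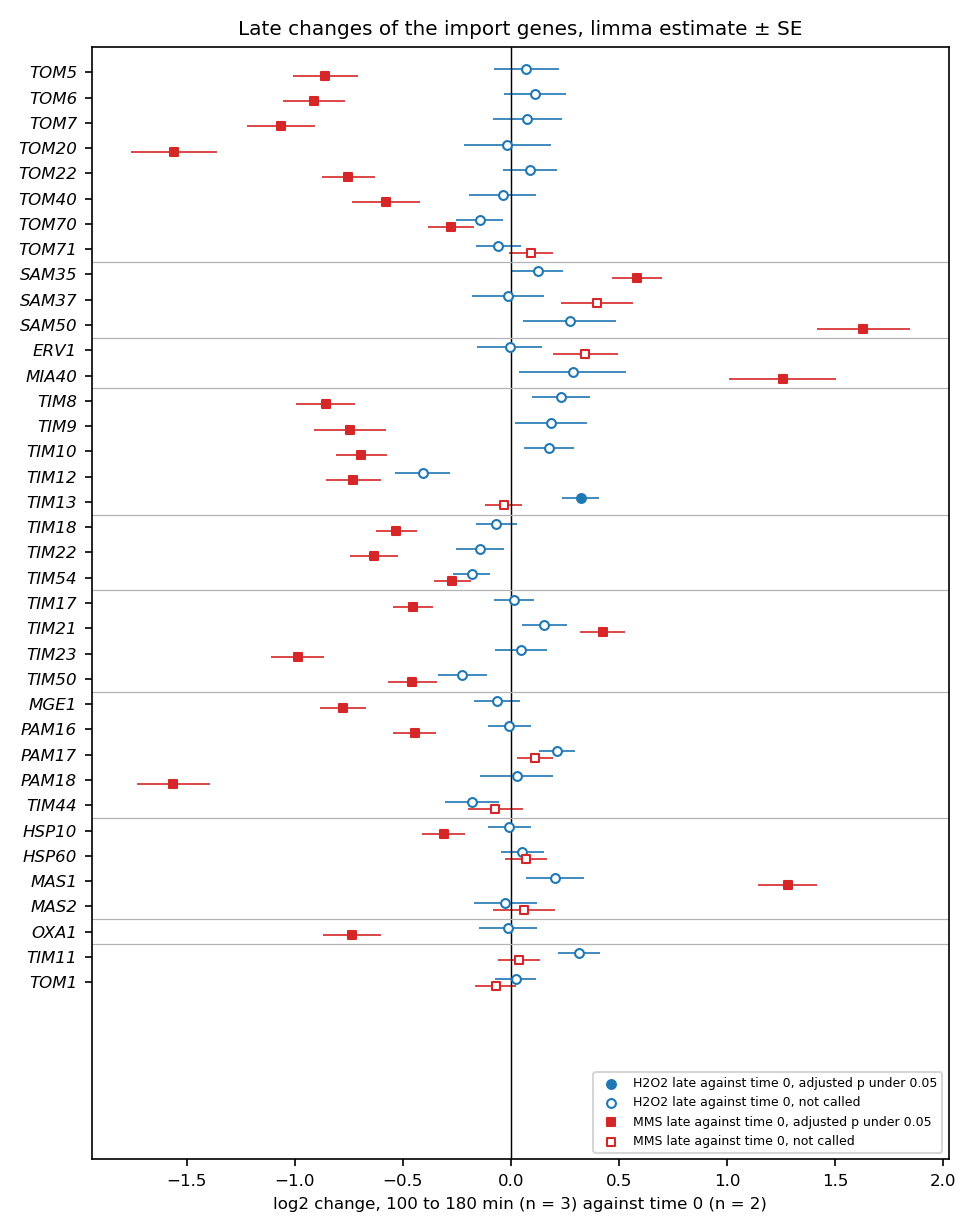
Log2 change of each import gene in the late window (100 to 180 min, n = 3) against time 0 (n = 2), blue circles for H2O2 and red squares for MMS, with bars for the SE of the limma fit and filled symbols for an adjusted p under 0.05. In MMS 22 filled symbols lie left of 0 and 5 right of it, while in H2O2 TIM13 is the filled symbol.

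The arrays can also be compared without a model, by counting genes whose groups do not overlap. All 3 late MMS arrays lay below both arrays at 0 min for 22 import genes and above them for 8, against 39.1% and 46.0% of all genes. The 22 are the genes that limma called lower. The 8 are the 5 that rose and PAM17, SAM37 and ERV1, which were not called. For the late H2O2 arrays, 7 lay below and 11 above, against 39.6% and 28.6% of all genes. In the early windows the counts were 8 below and 7 above for H2O2, against 41.7% and 33.5% of all genes, and 23 below and 9 above for MMS, against 38.3% and 39.2%. Between the late windows, MMS lay below H2O2 for 21 import genes and above it for 6, against 34.0% and 42.9% of all genes. The times of the fall were then counted within the MMS course. The genes that fell were picked for low signals at 100 to 180 min. Low points in that window, and a fall after 60 min, were thus largely set by the choice. Of the 22 genes that fell, 17 were lower at 60 than at 30 min and lower again at 100 min, 19 were lower at 140 than at 100 min, and 12 had their lowest signal at 140 min, 8 at 180 min and 2 at 100 min. Over the 6 arrays of the H2O2 course 21 of these 22 stayed within a range of 0.5 on the log2 scale, the exception being TIM12. No counts of this kind were made for all genes.

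The late windows of the stresses were also set against each other, which compares the treatments at the doses used. Doses were not matched, and genes of the DNA damage and peroxide responses rose in both courses. Which differences come from DNA damage and which from oxidation was not tested. MMS was lower than H2O2 for 21 import genes and higher for 7, against 70.5% of all genes, 31.3% lower and 39.2% higher. The 21 include TIM11, which is not an import component. With arrays centred on their medians, which moved the median difference of all genes from 0.10 to 0.00, the import counts were 23 lower and 4 higher, against 35.7% and 34.8% of all genes. Among the 21, the difference was -1.59 ± 0.15 for PAM18 (3.01-fold lower in MMS) and -1.54 ± 0.18 for TOM20 (2.91-fold lower). All 5 small Tim genes were lower, TIM13 included (-0.36 ± 0.08), and 6 of 8 TOM genes. The small Tim genes already read lower in the MMS course than in the H2O2 course at 0 min. There TIM8 was at 10.47 and 10.77, TIM9 at 10.66 and 10.88, and TIM10 at 11.92 and 12.04, MMS first. TIM12 was at 10.49 and 10.52 and TIM13 at 11.001 and 11.11. The comparison of the late windows does not subtract such differences at 0 min. The 7 higher in MMS were SAM50 (1.36 ± 0.19), MAS1 (1.08 ± 0.12), MIA40 (0.97 ± 0.22), SAM35, SAM37, ERV1 and TIM21. With arrays centred on their medians SAM37, ERV1 and TIM21 were not called, and over all alternatives their adjusted p ran up to 0.109, 0.129 and 0.121. Their calls, with those of TIM11, TIM12 and HSP10, were the 6 of 28 that some alternative lost.

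In the early window 1 import gene was called between the stresses. This was TIM22, lower in MMS with a difference of -0.57 ± 0.12 (adjusted p = 0.0249), against 8.13% of all genes, 2.39% lower and 5.74% higher. The call was lost without the 60 min array of either course or the 140 min H2O2 array (adjusted p between 0.0531 and 0.125). PAM18 was at -0.48 ± 0.18 (adjusted p = 0.129), SAM50 at 0.28 ± 0.23 (adjusted p = 0.496) and TIM21 at 0.26 ± 0.11 (adjusted p = 0.181). PAM18 was called without the 30 min MMS array, at an adjusted p of 0.00995. The count was 3 without the 30 min MMS array (16.3% of all genes called), 2 without MMS at 100 min (8.66%) and 0 without the 60 min array of H2O2 or MMS or H2O2 at 140 min (2.72%, 3.38% and 3.76%). Centring the arrays on their medians moved the median difference of all genes in this window from 0.05 to -0.06 and left the import count at 1. Between the early and late MMS windows themselves 13 import genes fell and 1, SAM50, rose, against 48.6% of all genes, 21.5% lower and 27.1% higher. TOM20 fell by 1.10 ± 0.20 between these windows, PAM18 by 0.84 ± 0.17 and TOM7 by 0.76 ± 0.16. This count of 14 was 3 without the 30 min MMS array (11.4% of all genes called), and the calls of TOM7 and SAM50 were among those lost (adjusted p = 0.0653 and 0.12). Whether the step from the early to the late window differed between the stresses was tested after the values had been seen. It did for 14 import genes, 3 with the more positive step in MMS and 11 with the more negative one, against 44.7% of all genes, 22.9% and 21.8%. That count was 4 without the 30 min MMS array (19.7% of all genes called), 6 without the 60 min H2O2 array (24.6%) and 9 without the 140 min MMS array (30.4%).

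Genes that work beside the import machinery were examined as lists late after MMS, where 40.3% of all genes rose and 34.6% fell. Of 9 partners of the motor, 4 rose and 2 fell (44.4% and 22.2%, median 0.17). HSP78, the matrix disaggregase, rose by 2.67 ± 0.22 (6.35-fold) and MDJ1, the matrix J-protein for folding, by 0.74 ± 0.12, while MDJ2, a paralog of PAM18, fell by 1.05 ± 0.14. Of 10 outer membrane partners, 5 rose and 3 fell (50% and 30%, median 0.85). OM45, an abundant outer membrane protein, rose by 3.89 ± 0.40 (14.8-fold), and MSP1, the ATPase that extracts stalled proteins, by 1.69 ± 0.21. CIS1, which recruits Msp1 to the TOM complex when import is blocked, was at 1.44 ± 0.70 and was not called (adjusted p = 0.0881). Of 12 presequence and quality control proteases, 9 rose and 1 fell (median 0.72), with PCP1, the rhomboid protease, at 1.79 ± 0.18, PIM1, the matrix Lon protease, at 1.22 ± 0.24 and CYM1, which degrades presequences, at 1.08 ± 0.29.

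The further lists hold clients of the Mia40 route, insertion factors and neighbours of the import genes in the organelle. Of 12 Mia40 substrates and partners, 3 rose and 4 fell late after MMS (median 0.20), with MIX14 at 1.51 ± 0.24, CMC4 at 0.95 ± 0.23 and HOT13, which keeps Mia40 free of zinc, at -0.70 ± 0.14. Early after H2O2, 4 of these 12 rose and 0 fell with limma, against 14.7% of all genes called higher and 19.0% lower. At an unadjusted p under 0.05 the count was 8 of 12, with no share of all genes taken at that level. Among the 4 were COA4 (1.16 ± 0.25) and COX23 (0.89 ± 0.21). Of 8 insertion partners 4 rose and 0 fell late after MMS with limma (median 0.28), among them MSS2 at 0.80 ± 0.22 and the prohibitin PHB2 at 0.55 ± 0.18. The count of insertion partners at an unadjusted p under 0.05 was also 4, again with no share of all genes taken. Of 13 ATP synthase subunits, the complex of TIM11, 3 rose and 4 fell (median -0.05), with the small subunits ATP19 and ATP18 at -0.88 ± 0.16 and -0.86 ± 0.14 and the stalk subunit ATP7 at 0.48 ± 0.13. SDH4, a succinate dehydrogenase anchor of the family of TIM18, rose by 0.70 ± 0.19, and SDH3, an anchor that is also a part of the TIM22 complex, was at 0.30 ± 0.13 (adjusted p = 0.0534). Of 55 genes named MRP, MRPL or MRPS with a number, most of which code for mitochondrial ribosomal proteins, 15 rose and 17 fell (median -0.03). No list was tested against another or against all genes.

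**Figure D4:**
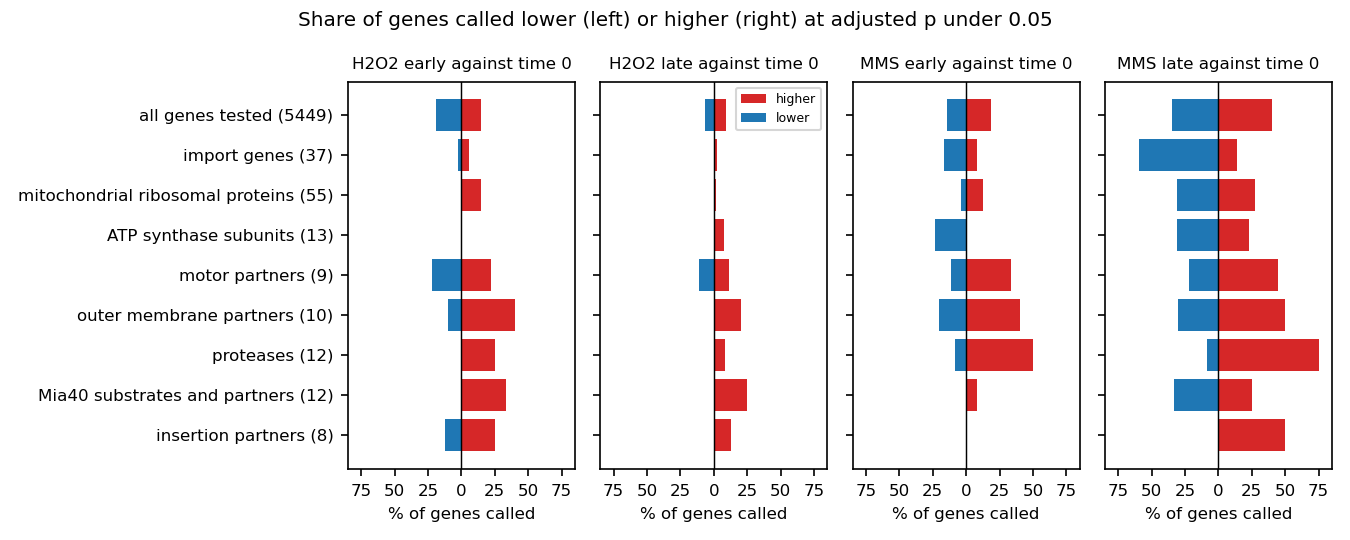
Percent of genes called lower (blue, left) or higher (red, right) at an adjusted p under 0.05 in each window against time 0 (panels), for all genes tested, the import genes and 7 lists of genes of the same organelle, with the number of genes in brackets. Late after MMS 59.5% of the import genes were lower and 13.5% higher, against 34.6% and 40.3% of all genes.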

How the data were processed

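The deposited table gives log2 signals of 5900 probe sets on 12 Affymetrix arrays, which the authors made with RMA, per the submitters' processing notes. The version, and whether all arrays were normalized together, are not given in the sources used here. Total RNA was primed with poly(T), per the labels' protocols. Probe sets were named through the platform annotation. The 184 control probe sets and 218 with no gene name were left out, the brightest of several probe sets of a gene was kept (47 genes), and 12 symbols were updated to RefSeq names, leaving 5449 genes. All were fitted with limma 3.58.1 (lmFit and eBayes, R 4.3.3) over 5 groups with 7 residual degrees of freedom, with Benjamini-Hochberg adjustment over all genes and calls under 0.05. The fit was tested on simulated data of the same design, for each window against time 0. It recovered 77% to 83% of log2 changes of 1 and 27% to 41% of changes of 0.5. False calls numbered 4 to 12. The simulated noise was independent between arrays, with no trend in time within a window.

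Signals in every array are given for the 3 called genes with the largest rise and fall in each comparison with time 0 and the 2 with the largest difference in each direction between stresses, and for a few others chosen after their values were seen. The import genes and the 8 lists were chosen with earlier results of these data known. Alternatives changed the baseline, scaling, dim-gene filter, moderation, probe set rule, windows, time point block and arrays used. The comparison of early-to-late steps between stresses was added after seeing the data. Promoter sequences were not analysed here.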

Additional observations from a re-analysis of the deposited data

Results flagged for a closer look

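For 14 of the 37 import genes the step from the early to the late window differed between MMS and H2O2 in limma's test of the difference itself, at an adjusted p under 0.05. Of all genes 44.7% were called in this test, 22.9% with a positive and 21.8% with a negative difference. The test was added after the values had been seen. Values are log2 steps ± SE, and the difference is MMS minus H2O2. For 11 genes it was below 0. TOM20 had the difference of largest size, -1.249, from a step of 0.15 ± 0.20 in H2O2 and -1.10 ± 0.20 in MMS. For PAM18 the difference was -1.107, from 0.27 ± 0.17 and -0.84 ± 0.17. For TOM7 it was -0.863 and for TIM23 -0.8504. In the other genes with a negative difference the MMS step was also the lower one. The difference was -0.7134 for TOM6, -0.6948 for TIM8, -0.5929 for TOM22, -0.5712 for MGE1, -0.5621 for TIM10, -0.418 for PAM16 and -0.3666 for TIM18.

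For 3 genes the difference was above 0. MAS1 stood at 1.115, from a step of -0.88 ± 0.14 in H2O2 and 0.24 ± 0.14 in MMS, so that the difference came with a fall in H2O2 and not with a further called rise in MMS. SAM50 stood at 1.083, from -0.22 ± 0.21 and 0.86 ± 0.21, and MIA40 at 1.006, from -0.54 ± 0.25 and 0.47 ± 0.25. None of the 14 calls was kept under every alternative, since none passed when the early window was 30 min alone or ran to 100 min. With these windows 0.312% and 0% of all genes were called. The calls were not equally firm. Out of 19 alternatives, those of TIM18, PAM16 and MIA40 were lost in 14, 12 and 11, and those of TOM20 and PAM18 in 2 each. Leaving out any of 10 single arrays lost the call of TIM18, any of 10 that of PAM16 and any of 9 that of MIA40.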

How the results depend on the processing

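Counts are import genes called by limma, out of 37. The counts late after MMS (27) and between stresses late (28) stayed within 1.5-fold in every alternative. With each course set against its own 0 min array alone the count was 1 early after H2O2 (3 in the report), 0 late after H2O2 (1) and 1 early after MMS (9). Of all genes 11%, 0.11% and 6.44% were called there, in the same order. With an early window of 30 min only the import count was 0 early and 0 late after H2O2, 0 early after MMS, 0 between the H2O2 windows (2), 6 between the MMS windows (14), 0 between stresses early (1) and 0 for the difference of steps (14). The shares of all genes called were 4.79%, 15%, 0.918%, 1.6%, 29.4%, 0.11% and 0.312%, in the same order. With an early window of 30 to 100 min the import count was 0 late after H2O2, 17 early after MMS, 0 between the H2O2 windows, 7 between the MMS windows, 9 between stresses early and 0 for the difference of steps. The shares of all genes called were 0.404%, 44.4%, 0.294%, 11.1%, 18.7% and 0%, in the same order. A mean-variance trend with robust moderation gave 2 late after H2O2 (15.3% of all genes called). The replicate block by time point gave 2 between stresses early (18.4% of all genes called) and 28 late (75.4%). The labels carry no numbers that pair cultures. Leaving out 1 array at a time gave 1 to 5 early and 0 to 3 late after H2O2, 1 to 17 early and 23 to 29 late after MMS, 1 to 2 between the H2O2 and 3 to 18 between the MMS windows, 0 to 3 early and 24 to 28 late between stresses, and 4 to 16 for the difference of steps. Over the same arrays the share of all genes called was 10.7% to 41% early and 0.11% to 23.3% late after H2O2. After MMS it was 6.44% to 48.9% early and 65.1% to 75.7% late. It was 1.56% to 17.7% between the H2O2 windows and 11.4% to 56% between the MMS windows. Between stresses it was 2.72% to 16.3% early and 63.7% to 71.6% late, and for the difference of steps 19.7% to 55.2%. No called gene turned its direction under any alternative. The cause of each shift was not tested. The precision is limited by 1 array per time point and 2 at time 0.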
